A study of Homo sapiens with 4 samples.

Results

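The microRNA hairpin rows are the entries of the 4 deposited count tables that carry the symbol of a microRNA gene (MIR followed by a number, or MIRLET7) and hold at least 10 reads summed over the 4 libraries. The members were chosen by that summed count and by name, not by any difference between groups. Rows ending in HG, which are named host transcripts, and antisense rows were left out. The rule found 131 rows among 28063, or 14092 reads in all, which is 0.0233% of the reads assigned to genes. All libraries came from KELLY cells, a line from a human neuroblastoma in which MYCN is amplified, transduced with a lentiviral vector for FLAG-tagged IWS1 and selected with 1 ug/ml puromycin. The vector carried either wild-type IWS1 (WT, 2 libraries) or the mutant M3, in which the element named TIM3 is disrupted (2 libraries). IWS1 is a transcription elongation factor that binds SPT6, and TIM names a short motif that is bound by TFIIS N-terminal domains of other elongation factors. There is no untransduced group here, both groups come from 1 cell line, and the labels do not say whether the 2 libraries of a group came from separate cultures. The p-values below therefore measure only how these libraries vary, which may be technical variation.

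A microRNA gene is transcribed by RNA polymerase II as a long primary transcript, often the intron or exon of another gene. In the nucleus DROSHA with DGCR8 cuts out a hairpin, XPO5 exports it, DICER1 removes the loop, and an Argonaute protein takes up 1 strand as the mature microRNA. Bases 2 to 8 of that strand, the seed, pair with target mRNAs. Sequencing was of poly(A) RNA, with fragments selected at 200 to 400 bp, and a mature microRNA has no poly(A) tail and is far shorter than these fragments. A read on a hairpin row therefore comes from a longer RNA that spans or touches the hairpin, and its count is no measure of the mature microRNA.

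The mature sequences that belong to the rows with the most reads and to the rows called between the groups are shown first, since the row names refer to them, with the seed in capitals. They are from RefSeq, as are those that follow.
hsa-miR-3654: gACUGGACaagcugaggaa
hsa-miR-4426: gAAGAUGGacguacuuu
hsa-miR-5047: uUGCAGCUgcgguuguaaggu
hsa-miR-4442: gCCGGACAagagggagg
hsa-miR-4523: gACCGAGAgggccucggcugu
hsa-miR-7161-5p: uAAAGACUguagaggcaacuggu
hsa-miR-7161-3p: uAGAUCUUugacucuggcagucuccagg
hsa-miR-1179: aAGCAUUCuuucauugguugg
These seeds all differ from each other. Over the 122 rows with a RefSeq entry there were 171 mature sequences with 166 distinct seeds.

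Among the mature strands listed, only 4 seeds were shared by more than 1 row. They are the classic families, printed to show how far the shared letters go. The 3 let-7 rows share GAGGUAG, MIR25 and MIR92B share AUUGCAC, and MIR378H and MIR378I share CUGGACU.
hsa-let-7d-5p: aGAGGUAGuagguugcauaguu
hsa-let-7g-5p: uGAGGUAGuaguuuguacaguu
hsa-let-7i-5p: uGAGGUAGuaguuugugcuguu
hsa-miR-25-3p: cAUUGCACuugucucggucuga
hsa-miR-92b-3p: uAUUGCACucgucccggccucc
hsa-miR-378h: aCUGGACUuggugucagaugg
hsa-miR-378i: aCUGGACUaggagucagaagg
MIR7-1 and MIR7-2 share the seed AACAAAU of their 3p strands. The 5p strand, hsa-miR-7-5p, was listed under MIR7-1 alone, so sharing of 5p seeds by this pair was not counted. The remaining listed seeds each belong to 1 row, also in rows with related names such as MIR320B2 and MIR320E. By listed seed, the rows are thus mostly separate microRNA genes rather than 1 family.

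The second set shown is the pair of hairpins that hold most of the reads. Beside each is a transcript of another gene that carries the same letters, taken from the matching gene with the most reads. The sequences are written as DNA on the strand of the microRNA, with the 1 differing base in capitals. MIR3654 lies at chr7:133034860-133034915 on the minus strand and MIR4426 at chr1:192716328-192716390 on the plus strand of GRCh38 (hairpins from RefSeq, GRCh38.p14). The EEF1G and RPS27A stretches are bases 1137 to 1192 and 470 to 532 of a GENCODE 29 transcript, inside coding ranges of 132 to 1442 and 325 to 792.
MIR3654: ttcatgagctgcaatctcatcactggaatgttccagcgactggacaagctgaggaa
EEF1G: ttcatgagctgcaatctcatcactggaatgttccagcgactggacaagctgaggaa
MIR4426: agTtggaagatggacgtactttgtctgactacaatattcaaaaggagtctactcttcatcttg
RPS27A: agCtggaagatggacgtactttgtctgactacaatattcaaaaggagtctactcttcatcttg
The MIR3654 hairpin and the coding sequence of EEF1G, a subunit of translation elongation factor 1, are identical over all 56 bases. The MIR4426 hairpin and the coding sequence of RPS27A, which encodes ubiquitin fused to a ribosomal protein, differ over 63 bases by T3C alone, with the hairpin's base first and positions counted from its 5′ end.

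Both hairpins lie inside gene models that are copies of those mRNAs. MIR3654 lies in an intron of CHCHD3 and within the model AC008038.1, a processed pseudogene whose 1314 bases are 99.2% identical to EEF1G. MIR4426 lies within AL136454.1, which is 97.8% identical to RPS27A over 509 bases. The search covered the 107 rows with a hairpin sequence, and the other members, MIR5047 among them, were not searched. Of the 107, MIR3654 and MIR4426 were the 2 (1.87%) that matched a transcript of another gene. A match covered at least 80% of the hairpin at 90% identity or more. The share was 2.64% (37 of 1401) among microRNA rows below 10 reads. MIR3654 matched 7 other genes in this way and MIR4426 matched 12. EEF1G and RPS27A are shown because they had the most reads among these. The label under which the rows were collected describes them as reads of host pre-mRNA. For these 2 rows the hairpin sequence cannot be told apart from that of a ribosomal or elongation factor mRNA, or differs from it by 1 base, and where their reads were made was not tested.

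The rows were unevenly filled. Of 1878 rows that matched the symbol rule, 1354 had 0 reads in every library, 393 had 1 to 9 reads and 131 had at least 10. The choice used only the summed count, so by rule it fixes the level of the members and not a direction between WT and M3. Near the threshold, however, a row can enter through 1 group alone, as MIR3682 did (0 and 0 reads in WT, 7 and 7 in M3). Raw reads were summed, and WT 2 was the deepest library. At the threshold, 14 rows held 9 reads and were left out (MIR1271, MIR149 and MIR3125 among them), and 12 held 10 reads and were kept (such as MIR1470, MIR339 and MIR4254). The median member had 20 reads over the 4 libraries, 103 members had under 50 and 15 had at least 100. MIR3654 alone held 47.1% of all member reads, and MIR3654 with MIR4426 held 56.0%.

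The libraries held 13645171 and 20962372 gene reads in WT 1 and WT 2, and 12289685 and 13581628 in M3 1 and M3 2. Reads outside any annotated feature were 23.3% and 23.2% in WT against 27.5% and 25.6% in M3. The WT libraries differed from each other more than the M3 libraries did, with a chi-square, divided by its degrees of freedom, of 22.4 against 4.45 over genes. The IWS1 row itself, in which transgene and endogenous reads were not separated, stood at 370 and 393 CPM (counts per 1000000 gene reads, scaled by the TMM method of edgeR) in WT and at 596 and 598 in M3, a log2 difference of 0.65 ± 0.12 (SE; adjusted p = 0.0225, edgeR), and the call was lost without M3 1 (adjusted p = 0.215) or M3 2 (0.138). Adrenergic neuroblastoma markers were all present (10 of 10, summed CPM 5658 to 7312, higher in both WT libraries). Markers of other cells were low: haematopoietic genes summed to 0.142 to 0.800 CPM with CD3E at 0, epithelial genes to 2.91 to 6.96, Schwann and glial genes to 4.12 to 6.88 with S100B at 0, and endothelial and fibroblast genes to 6.69 to 26.6, highest in WT 1.

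Summed over all 131 rows, the level was 293 and 207 CPM in WT and 230 and 220 CPM in M3. The groups overlapped (250 ± 60.8 against 225 ± 7.26, mean ± SD, n = 2 each), and the ratio of M3 to WT was 0.900. That sum was dominated by MIR3654 and MIR4426, which together gave 204 and 112 CPM in WT and 112 and 110 CPM in M3. Without these 2 rows, a choice made after their values were seen, the other 129 gave 89.0 and 95.5 CPM in WT and 119 and 110 CPM in M3, a ratio of 1.24 with no overlap. The summed level therefore pointed in opposite directions with and without the 2 rows. No test is given for these sums, because with 2 libraries in each group the smallest p that an exact permutation test allows is 0.33.

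**Figure D1:**
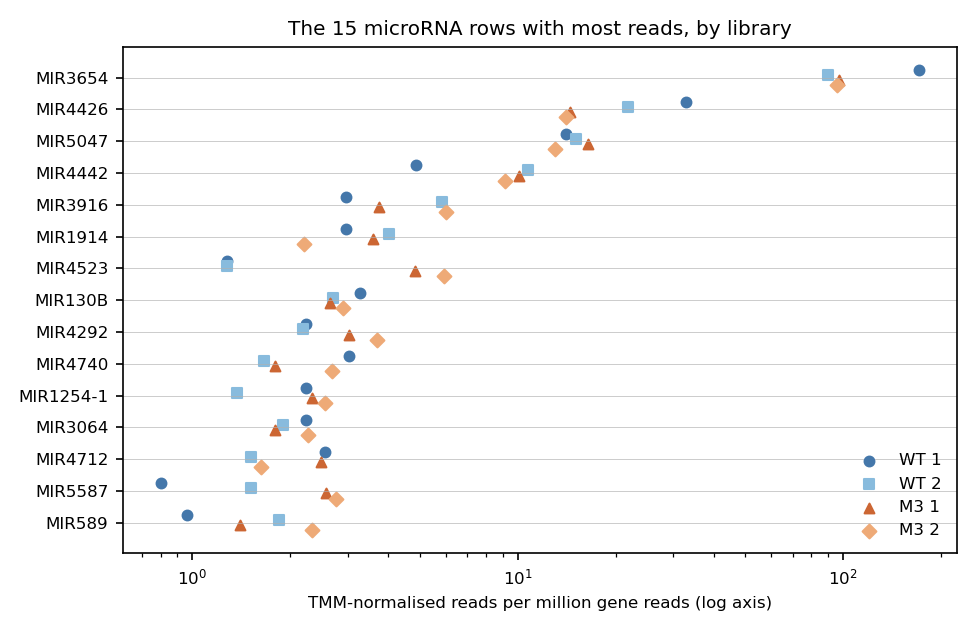
The 15 microRNA rows with the most reads, from MIR3654 at the top down. The horizontal axis gives CPM (TMM-normalised) on a log scale, with 1 point for each library. MIR4523 sits at 1.28 in both WT libraries and at 4.83 and 5.95 in M3, while MIR3654 in WT 1 (171) stands apart from its other 3 values (89.9 to 97.2).

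Test results across genes came from 1 fit over the whole table, and 41 of the 131 rows passed its filter on low counts (at least 0.735 CPM in 2 libraries). Of these 41, 4 were called at an adjusted p under 0.05 (9.76%), against 15.8% of the 14141 genes tested (9.16% higher and 6.63% lower in M3). MIR4523, MIR7161 and MIR1179 were higher in M3 and MIR4426 was lower. At an unadjusted p under 0.05 there were 8 rows (19.5%, against 35.9% of all genes), adding MIR5587, MIR1304, MIR4312 and MIR483. MIR7161, MIR3685, MIR4312, MIR573, MIR483, MIR4258 and MIR1179 passed the filter only through the M3 libraries, and no row passed only through WT, so the rows that passed are not a fair sample of direction.

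Dropping the filter brought in every member. Then 8 of 131 were called (6.11%), against 19.4% of 20290 rows, with 6 higher and 2 lower in M3 (10.2% and 9.27% of all rows). The additions were MIR5587, MIR483 and MIR3682 among the higher rows and MIR3654 among the lower. That fit gave MIR3654 an SE of 0.15, against 0.25 with the filter, and called it although its groups overlapped. At nearly the same SE, MIR5587 had an unadjusted p of 0.0075, against 0.0217 with the filter (edgeR). The fit without a filter was thus the less strict for these rows, and calls made only there are weaker. A filter that is blind to group, a mean of at least 10 reads, kept 39 members and called MIR4523 and MIR7161 higher and MIR4426 lower, against 16.1% of all genes (9.4% higher and 6.67% lower). Over those 39 the median log2 difference was 0.05, against -0.01 over all genes kept, with 22 rows above 0 and 17 below. Their median SE was 0.46 on the log2 scale, against 0.17 over all genes kept.

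In level, 54 of the 131 rows (41.2%) had WT and M3 values that did not overlap, 40 with M3 higher and 14 with M3 lower. The share among all tested genes was 68.2% (34.0% with M3 higher and 34.1% lower). Those genes all passed the filter on low counts, which 90 of the 131 rows did not, so the shares are not at like depth.

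MIR4426 had 411 and 459 reads in WT 1 and WT 2 and 186 and 198 in M3 1 and M3 2. In CPM these are 32.9 and 21.8 against 14.5 and 14.03, so the M3 values were the lower in each case. The row fell by 0.93 ± 0.21 on the log2 scale (SE, n = 2 and 2; adjusted p = 0.0293, edgeR). RPS27A, whose coding sequence the hairpin nearly matches, had 307 and 253 CPM in WT and 96.2 and 101 CPM in M3, and fell by 1.501 ± 0.13 on the same scale (adjusted p = 0.0185, edgeR). Reads on the row were 10.7% and 8.61% as many as those on RPS27A in WT and 15.05% and 13.8% in M3, as a ratio of reads and not per length.

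MIR3654, the row with the most reads, had 2142 and 1894 reads in WT and 1249 and 1352 in M3. Scaled, these were 171 and 89.9 CPM against 97.2 and 95.8 CPM, so WT 1 stood alone and WT 2 lay below both M3 libraries. The log2 difference was -0.43 ± 0.25 (adjusted p = 0.246, edgeR; 0.0167 with no filter), and it was 0.10 without WT 1 and -0.83 without WT 2, where it passed the threshold. EEF1G had 3244 and 2578 CPM in WT and 1591 and 1679 CPM in M3, and fell by 0.83 ± 0.18 (adjusted p = 0.0275, edgeR), a call lost without M3 1 (adjusted p = 0.3331) or M3 2 (0.180). The row's reads were 5.28% and 3.49% as many as those of EEF1G in WT and 6.11% and 5.71% in M3. CHCHD3, the mitochondrial cristae gene whose intron holds the hairpin, stood at 123 and 104 CPM in WT and 103 and 96.1 CPM in M3 (log2 difference -0.18 ± 0.13, adjusted p = 0.352, edgeR).

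**Figure D2:**
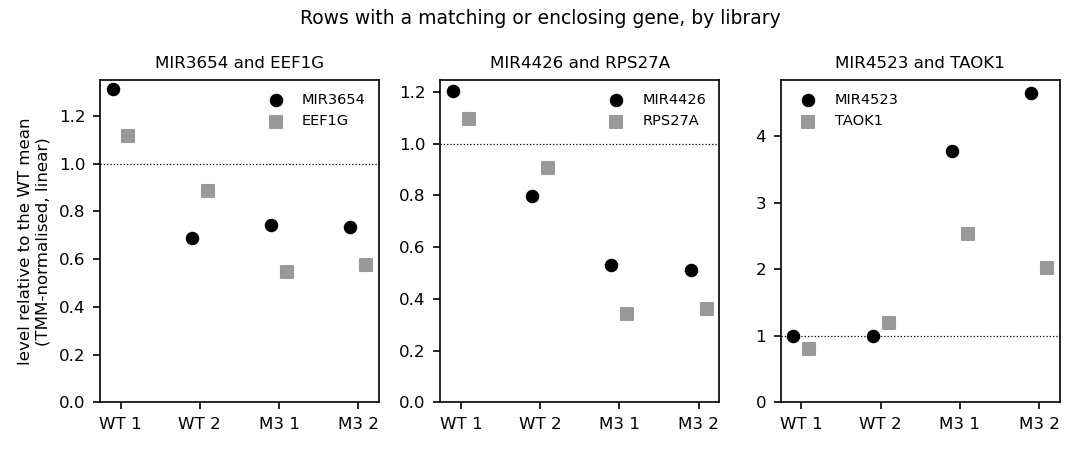
Levels of MIR3654 with EEF1G, MIR4426 with RPS27A and MIR4523 with TAOK1 in each library, on a linear axis relative to the mean of the 2 WT libraries (dotted line at 1). Circles are the microRNA row and squares the gene. MIR4426 and RPS27A are both below 1 in the M3 libraries, MIR4523 and TAOK1 both above it, and MIR3654 is above 1 only in WT 1.

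MIR4523 was the row with the clearest rise. It lies at chr17:29390662-29390730 on the plus strand, in the 5′ UTR of TAOK1, which encodes a kinase of the Ste20 family that acts upstream of stress-activated MAP kinases. The noncoding genes AC068025.2 (same strand) and AC068025.1 (opposite strand) also overlap the hairpin, and which transcript gave the reads was not tested. The MIR4523 row had 16 and 27 reads in WT and 62 and 84 in M3, which is 1.28 and 1.28 CPM against 4.83 and 5.95 CPM. The groups were well apart, and the row rose by 2.07 ± 0.31 (log2, SE; adjusted p = 0.0198, edgeR), with 1.90 to 2.21 when any 1 library was left out.

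TAOK1 rose as well, from 48.4 and 71.4 CPM in WT to 151 and 121 CPM in M3 (1.18 ± 0.20, adjusted p = 0.0204, edgeR). Reads on the MIR4523 row were 2.64% and 1.80% as many as those on TAOK1 in WT and 3.19% and 4.93% in M3. Both the row and its host were thus higher in both M3 libraries than in either WT library, and the difference between their 2 changes was not tested.

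MIR7161 lies at chr6:158609707-158609790, in an intron of TMEM181, a transmembrane protein gene. It too passed the filter only through M3, although it was also called after the filter on the mean (adjusted p = 0.0463, edgeR). The row had 3 and 12 reads in WT against 20 and 23 in M3, so its groups did not overlap but WT 1 rested on very few reads. The difference was 1.86 ± 0.53 (log2; adjusted p = 0.0482, edgeR), and the call was lost with upper quartile scaling (adjusted p = 0.0524), with total counts (0.0613), and without WT 1 (0.0991), M3 1 (0.236) or M3 2 (0.182). TMEM181 itself differed by 0.37 ± 0.18 and was not called (adjusted p = 0.175, edgeR).

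MIR1179 had 2 and 2 reads in WT and 15 and 11 in M3. It lies at chr15:88608107-88608197, between GENCODE 29 genes and within the RefSeq span of AEN, a nuclease gene induced by p53. It entered the test only because its M3 values passed the filter, so a difference in that direction was built into its selection, and its mean was under the 10 reads of the filter that is blind to group. The log2 difference was 2.93 ± 0.74 (adjusted p = 0.0364, edgeR; 0.0166 with no filter), with adjusted p of 0.0596 without WT 2, 0.324 without M3 1 and 0.0814 without M3 2. AEN had 201 and 188 CPM in WT and 179 and 181 CPM in M3 (-0.11, adjusted p = 0.520, edgeR). MIR7-2, which lies a few kilobases downstream in the same span, had 13 and 7 reads in WT and 11 and 11 in M3 (0.37 ± 0.65), so the neighbouring rows did not show the same values.

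MIR3682 had no read in either WT library and 7 reads in each M3 library. It reached the 10 summed reads of the rule through M3 alone, so a difference in that direction was built into its selection. Against a floor of 3 reads over the WT group, the ratio of M3 to WT was 5.81. That ratio takes the few M3 reads as exact and is not a lower bound. MIR3682 lies in an intron of GPR75-ASB3, a read-through transcript whose own row had 0 reads in every library. It was called only in the fit with no filter.

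Position in the genome divided the rows into groups of unequal size. By GENCODE 29, 37 rows lay in an exon of a gene on the same strand (11228 reads, 79.7% of all), 68 in an intron on the same strand (2133 reads, 15.1%), 5 opposite an exon (94 reads), 9 opposite an intron (325 reads) and 12 between genes (312 reads). Exonic rows thus held most reads although intronic rows were more numerous. Of the exonic reads, however, 7891 were on MIR3654 and MIR4426, and the other 35 exonic rows held 3337. MIR3654 counts as exonic through the pseudogene model AC008038.1, while it lies in an intron of CHCHD3. For counting, the use of strand is not given in the sources used here, and for rows opposite a gene the strand of the reads cannot be told.

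The intronic rows together had 348 and 654 reads in WT and 572 and 559 in M3. Scaled, these were 27.8 and 31.0 CPM in WT and 44.5 and 39.6 CPM in M3 (29.4 ± 2.26 against 42.1 ± 3.46, mean ± SD, n = 2 each). The 2 M3 values were the higher, with a ratio of 1.43, and the largest row, MIR4292, held 7.74% of the reads. Row by row, 46 of 68 had a higher mean in M3. Groups did not overlap in 22 rows with M3 higher (32.4%, against 34.0% of all tested genes) and in 7 with M3 lower (10.3%, against 34.1%). The tested genes all passed the filter on low counts, which many of these rows did not, so the shares are not at like depth.

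The host genes of the intronic rows were, by sum, lower in M3. Their 62 rows came to 9674 and 8943 CPM in WT and 8471 and 8496 CPM in M3 (ratio 0.911), and the median log2 difference over the 60 tested was -0.12. The share of reads on no annotated feature was also higher in both M3 libraries (27.5% and 25.6% against 23.3% and 23.2%), and its part in the level of the intronic rows was not tested. The 35 exonic rows other than MIR3654 and MIR4426 had 47.1 and 55.1 CPM in WT and 60.7 and 57.2 CPM in M3, a ratio of 1.15.

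**Figure D3:**
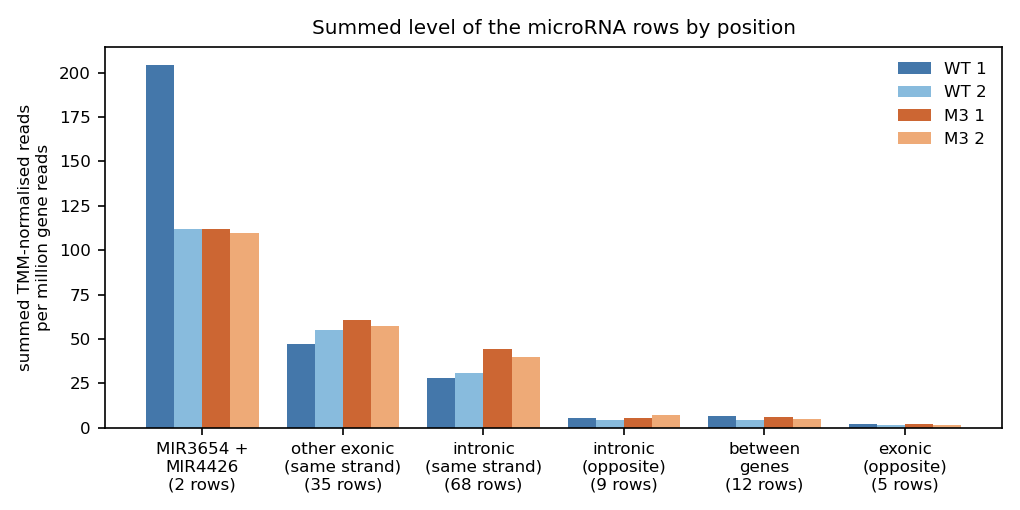
Summed CPM (TMM-normalised) for the microRNA rows of each position class, with 1 bar for each library and the number of rows under each class. The intronic rows on the same strand are at 27.8 and 31.0 in WT and at 44.5 and 39.6 in M3, and MIR3654 with MIR4426 reach 204 in WT 1 against 110 to 112 in the other 3 libraries.

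A host row on the same strand was found for 96 of the 131 rows, in 91 genes. Of the 87 host genes tested, 4 were called higher in M3 and 6 lower (11.5%, against 15.8% of all genes tested), with a median log2 difference of -0.12 against -0.01 over all genes. The higher hosts included TAOK1, TOP2B (topoisomerase 2 beta) and ZRANB2 (a splicing factor). The lower hosts included NDUFS8 (a subunit of respiratory complex I), WIPI1 (an autophagy protein), PTPRN (a protein of dense-core secretory granules), B9D1 (a ciliary protein) and DYRK1B (a protein kinase). Most hairpin rows held few reads beside their hosts, a median of 0.581% as many over 95 pairs with host reads, and 54 of them held under 1%. Some held many: MIR3654 had 104% as many as CHCHD3 and MIR378I 37.6% as many as TNFRSF13C. The largest share, 420%, was that of MIR548AQ in IGF2BP2, a host with 0 to 3 reads in each library. The host calls were fragile. Without M3 1 there were 2 host genes called, TAOK1 among them, and without M3 2 there were 6, with TAOK1, ZRANB2 and WIPI1 among them. With total counts the calls of NDUFS8, WIPI1, PTPRN, B9D1 and DYRK1B were lost (adjusted p = 0.0559 to 0.0759, edgeR).

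Besides MIR4523 in TAOK1, the row of a called host with the most reads was MIR4442 in TOP2B. MIR4442, in the 5′ UTR of TOP2B, had 61 and 227 reads in WT and 130 and 129 in M3. Its log2 difference was 0.26 ± 0.32, between -0.17 without WT 1 and 0.97 without WT 2, where it was called. TOP2B rose from 248 and 280 CPM to 359 and 350 CPM (0.43 ± 0.12, adjusted p = 0.048, edgeR), a call lost with the replicate number as a block (adjusted p = 0.119) and without M3 1 (0.460) or M3 2 (0.303).

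ZRANB2 rose from 46.4 and 45.3 CPM to 77.6 and 70.5 CPM (0.69 ± 0.13, adjusted p = 0.022, edgeR), a call lost without M3 1 (adjusted p = 0.202). MIR186, in an intron of ZRANB2, had 0 and 3 reads in WT and 10 and 2 in M3.

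Rows in the hosts that fell showed no common direction. WIPI1 fell from 14.2 and 13.8 CPM to 7.24 and 9.14 CPM, and its intronic row MIR635 had 20 and 29 reads in WT against 27 and 13 in M3 (0.02 ± 0.48). MIR153-1, in an intron of PTPRN, had 4 and 17 reads against 11 and 7. NDUFS8 fell from 105 and 77.2 CPM to 54.2 and 58.8 CPM while its rows MIR4691 (7 and 4 reads in WT, 18 and 9 in M3) and MIR7113 (6 and 4, then 3 and 1) differed in order. The rows of B9D1 and DYRK1B (MIR1180 and MIR6719) had 0 to 6 reads in every library.

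**Figure D4:**
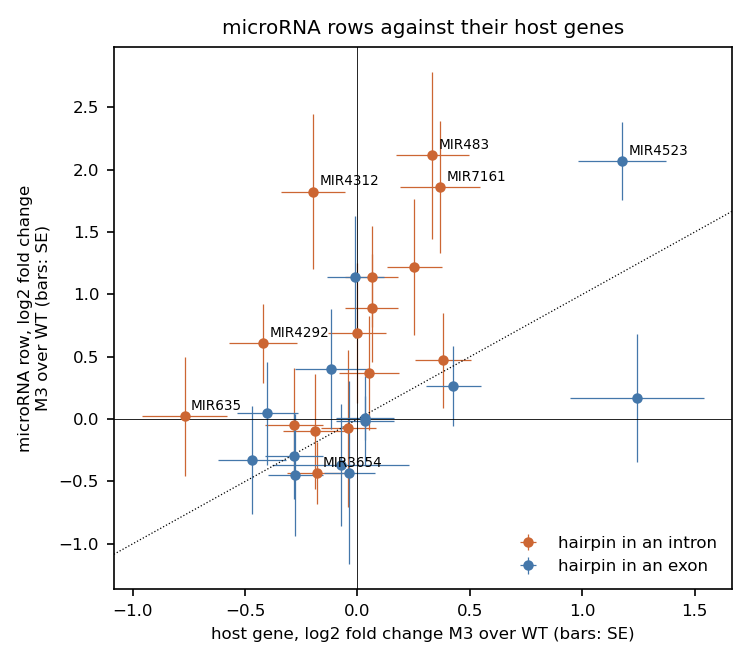
Log2 fold changes of M3 over WT for the 28 microRNA rows with a mean of at least 10 reads (vertical axis) and for the genes that hold them on the same strand (horizontal axis), with bars for the SE. The dotted line marks equal change, and MIR3654 is drawn against CHCHD3. MIR4523 (2.07) lies far to the upper right with TAOK1 (1.18), and the vertical bars are wider than the horizontal ones.

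Several hosts carry 2 rows, which share a transcript and are not independent. In DDX5, an RNA helicase that assists DROSHA, MIR5047 had 176 and 319 reads in WT and 211 and 184 in M3. MIR3064, in the same gene, had 28 and 40 reads in WT and 23 and 32 in M3. Neither row differed beyond its error (0.01 ± 0.18 and -0.01 ± 0.36), and DDX5 stood at 584 and 619 CPM in WT and 611 and 619 CPM in M3.

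CAPN15, a calpain protease gene, holds MIR5587 and MIR3176 in introns. MIR5587 had 10 and 32 reads in WT and 33 and 39 in M3 (1.14 ± 0.41, adjusted p = 0.0846, edgeR). MIR3176 had 9 and 30 reads in WT and 27 and 29 in M3 (0.89 ± 0.43). In both rows the scaled M3 values were the higher, while neither passed the threshold. Without WT 2 both did (adjusted p = 0.00739 and 0.0384, edgeR), and CAPN15 differed by 0.06 ± 0.12.

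UCKL1, a uridine-cytidine kinase gene, holds MIR1914 (37 and 85 reads in WT, 46 and 31 in M3) and MIR647 (11 and 33, then 15 and 18). Their log2 differences were -0.30 ± 0.34 and -0.05 ± 0.46, and that of UCKL1 was -0.28 ± 0.13. None of these was called. In ATP6V0A1, a subunit of the vacuolar proton pump, MIR5010 had 3 and 26 reads in WT and 10 and 6 in M3, and MIR548AT had 3 to 6 in every library.

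Among other rows with at least 100 reads, MIR4292 in an intron of RABL6, a Rab-like GTPase gene, had 28 and 46 reads in WT and 39 and 52 in M3 (0.61 ± 0.31). RABL6 had a value of the other sign (-0.42 ± 0.15; adjusted p = 0.0833, edgeR, and 0.0413, DESeq2). MIR1254-1, in an intron of CCAR1, a coactivator of transcription, had 28 to 36 reads in every library (0.47 ± 0.38). MIR589, in an intron of FBXL18, an F-box gene, had 12 and 39 reads in WT against 18 and 33 in M3 (0.37 ± 0.46).

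The remaining rows of that size lie in noncoding exons or opposite a gene. MIR3916 had 37 and 123 reads in WT and 48 and 85 in M3, and both groups spread widely. MIR130B had 41 and 57 reads in WT and 34 and 41 in M3, and MIR4712, in GABPB1-AS1, had 32 and 32 in WT and 32 and 23 in M3. MIR4740, which lies opposite an intron of the chromatin gene BAHCC1, had 38 and 35 reads in WT and 23 and 38 in M3. Each of these 4 rows differed by 0.12 or less in size on the log2 scale, and none was called.

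Of the 7 rows that passed the filter only through M3, 5 were not called. MIR573 (1.22 ± 0.55), MIR4258 (1.12 ± 0.57) and MIR3685 (0.87 ± 0.55) were among these. MIR483, in an intron of IGF2, a growth factor gene, had 4 and 5 reads in WT and 22 and 10 in M3 (2.12 ± 0.68, adjusted p = 0.0631, edgeR), while IGF2 had 133 and 186 CPM in WT and 211 and 192 CPM in M3. MIR4312, in an intron of ANP32A, had 7 and 4 reads in WT and 15 and 18 in M3 (1.82 ± 0.62, adjusted p = 0.0749, edgeR). MIR483 and MIR4312 passed the threshold without WT 1 (adjusted p = 0.048 and 0.0259, edgeR).

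Like microRNA rows at large, most rows of microRNAs studied in neuroblastoma and neural cells had hardly any reads in these tables. Of all 1878 rows of the symbol rule, 1354 had 0 reads and 131 reached 10, so sparse reads were not particular to this list. Of the 54 rows of the list, which include the MIR17 cluster, MIR34A, MIR9, MIR124 and every MIRLET7 row, 35 had 0 reads in all libraries and 7 reached the 10 reads of the rule. A row at 0 here says nothing of the mature microRNA, as the library type does not hold it. MIR218-2, in an intron of SLIT3, an axon guidance gene, had the most with 8 and 19 reads in WT and 15 and 5 in M3 (-0.08 ± 0.63).

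MIR25, in an intron of MCM7, a subunit of the replicative helicase, had 6 and 19 reads in WT and 2 and 6 in M3. MIR7-1, in the 3′ UTR of the RNA-binding protein gene HNRNPK, had 1 and 7 reads in WT and 8 and 5 in M3. Rows of let-7, which restrain growth in many tissues as mature microRNAs, were MIRLET7I (4 and 2, then 4 and 3 reads), MIRLET7G in WDR82 (1 and 4, then 6 and 1) and MIRLET7D (3 and 4, then 4 and 0). In CPM the MIR25 values of M3 were both below those of WT. None of these 5 rows passed the count filter, and none was called in the fit without it.

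Long host transcripts named after a microRNA (symbols ending in HG) lie outside the rows described. Of 61 such rows, 19 were tested and 0 were called by edgeR, DESeq2 or limma-voom, against 15.8% of all genes called by edgeR. The count at an unadjusted p under 0.05 in edgeR was 2 (10.5%, against 35.9% of all genes): MIR34AHG (-0.43 ± 0.15, adjusted p = 0.0813) and MIR4453HG (-0.79 ± 0.30, adjusted p = 0.1004), and both were called without a filter. MIR17HG, the primary transcript of the MYCN-driven MIR17 cluster, had 28.1 and 25.1 CPM in WT and 35.3 and 30.3 CPM in M3 (0.30 ± 0.15, adjusted p = 0.177, edgeR).

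The genes that process microRNAs or carry out their repression were measured far more precisely than the hairpin rows. Of 37 symbols listed, 34 were in the tables and 33 were tested. Of these, 7 were called higher in M3 and 0 lower (21.2%, against 15.8% of all genes, 9.16% higher and 6.63% lower). Their median log2 difference was 0.25, against -0.01 over all genes tested. At an unadjusted p under 0.05 there were 14 (42.4%, against 35.9% of all genes). The 7 were LIN28B, DICER1, AGO2, AGO3, TNRC6B, TNRC6C and PAPD4, and TNRC6C was named after its values were seen.

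LIN28B, which binds let-7 precursors and blocks their maturation, rose from 92.7 and 116 CPM in WT to 219 and 204 CPM in M3 (1.02 ± 0.14, adjusted p = 0.0185, edgeR). DICER1, the cytoplasmic nuclease, rose from 75.0 and 107 CPM to 183 and 156 CPM (0.90 ± 0.18, adjusted p = 0.024, edgeR), a call lost without M3 1 (0.77, adjusted p = 0.0652). AGO2, the Argonaute that cuts targets, rose from 78.1 and 128 CPM to 212 and 171 CPM (0.89 ± 0.22, adjusted p = 0.034, edgeR). The M3 values of these 3 genes were all above the WT values.

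AGO3 rose by 0.68 ± 0.16 and PAPD4, a poly(A) polymerase that adds bases to microRNA ends, by 0.65 ± 0.15. The Argonaute partners TNRC6B and TNRC6C, which recruit deadenylases, rose by 0.79 ± 0.18 and 0.64 ± 0.15. Without M3 1 the list kept 1 call, LIN28B, and without M3 2 the calls of AGO3, PAPD4 and TNRC6C were lost (adjusted p = 0.125, 0.0965 and 0.0716). Of the genes for the nuclear steps and export, DROSHA differed by 0.12, DGCR8 by -0.04 (0.077 with total counts) and XPO5 by 0.13, and none of them was called. TARBP2, a partner of DICER1, had a negative value (-0.47 ± 0.16, adjusted p = 0.0706, edgeR; called without WT 2).

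**Figure D5:**
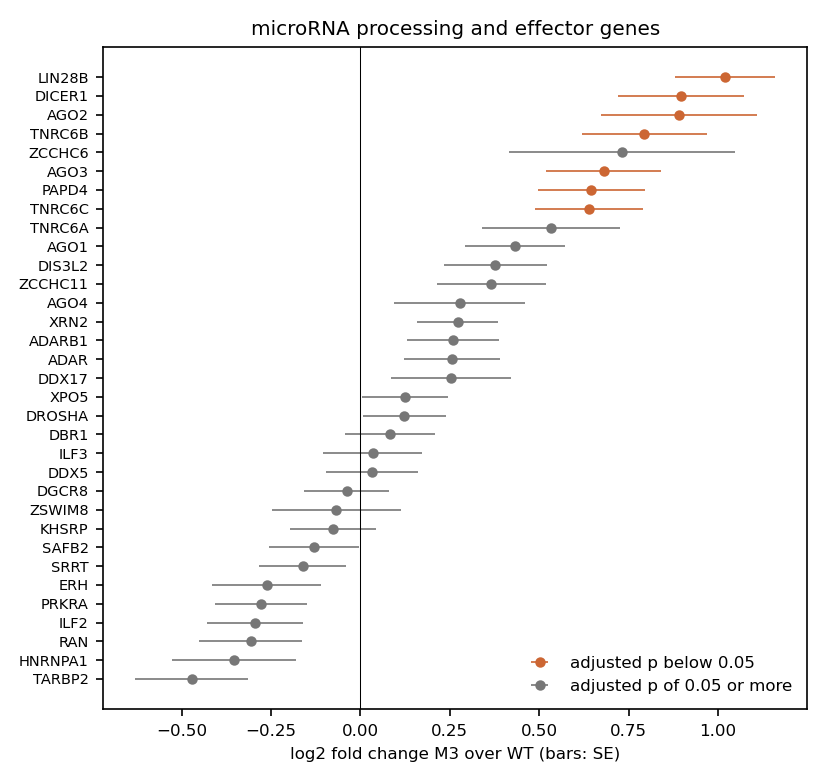
Log2 fold change of M3 over WT for each tested gene of the microRNA processing and effector list, with bars for the SE and colour for an adjusted p under 0.05 (edgeR). The 7 called genes all lie to the right, with LIN28B at 1.02, and DROSHA, DGCR8 and XPO5 lie near 0.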

How the data were processed

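Poly(A) RNA sequencing of 4 libraries was used, 2 of each group, with groups and replicate numbers from the labels. The authors deposited whole read counts per gene symbol, not normalised. The submitters' processing notes list the build hg38 and the tools HTSeq, HISAT2 2.1.0 and DESeq2. Annotation, strand setting and counting mode: not given in the sources used here. The 5 summary values of each table (unassigned reads, 23.2% to 27.5%, ambiguous reads, 3.16% to 3.50%, and 3 others) entered neither library sizes nor tests.

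The members and gene lists were chosen with earlier results of these data known. M3 was compared with WT by edgeR 4.0.16 (filterByExpr, TMM factors of 0.916 to 1.05, robust quasi-likelihood F test without covariates) with Benjamini-Hochberg adjustment over 14141 genes and a threshold of 0.05. The SE is the log2 fold change divided by the root of F. The biological coefficient of variation was 0.124. In data simulated on these 14141 genes, 81% of 2-fold and 97% of 3-fold changes were recovered. The simulation gave all genes and both groups the same coefficient of variation, set below 0.124. Its shares are over all genes and are not those to be had for the hairpin rows, which hold few reads. CPM are per 1000000 gene reads.

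Text names IWS1, members called, the 15 members with most reads, up to 10 members of the neural list, their hosts, and up to 6 called genes per list. Other members were named after their values were seen, and a few genes are not reported here. Positions came from RefSeq (GRCh38.p14) for 127 members, 20 of them with the strand from GENCODE 29, and from GENCODE 29 for 4. Transcripts were searched with blastn 2.17.0. Same-numbered libraries did not deviate together (correlation -0.144), and the main fit did not pair them. Whether they were handled together was not tested. Alternatives were other scalings and filters, DESeq2 1.42.0, limma 3.58.1 voom, a replicate block and leaving out each library.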

Additional observations from a re-analysis of the deposited data

How the results depend on the processing

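The count of called genes (2232) was 1120 with total counts (856 higher and 264 lower), 3945 without a filter, 5314 with the crossed pairing of replicate numbers and 359 to 6735 with 1 library left out. The 4 called microRNA rows became 8 without a filter, 8 with the crossed pairing, 1 at a mean of at least 50 reads, 1 with DESeq2 (which gave 5 of the 41 rows an adjusted p) and 2 to 7 with 1 library left out. The 10 called hosts became 3 with total counts, 21 without a filter, 31 with the crossed pairing, 5 for intronic hairpins and 2 to 48 with 1 library left out. The 7 called processing genes became 12 without a filter, 15 with the crossed pairing and 1 to 24 with 1 library left out. The 0 called HG rows became 2 without a filter, 3 with the crossed pairing and 0 to 3 with 1 library left out. The summed level, 0.900, was 1.28 without the 3 largest rows and 1.24 without MIR3654 and MIR4426, both chosen by read number, and 0.768 to 1.09 with 1 library left out. The ratio of intronic rows, 1.43, stayed between 1.35 and 1.55. These sums come from no fit, so blocks and other tests do not apply to them.

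With the replicate block, 2315 genes, 5 microRNA rows, 11 hosts, 9 processing genes and 0 HG rows were called, and MIR5047 was -0.000071, MIR635 -0.067 and MIR647 0.0046. The calls of TOP2B (adjusted p = 0.119) and PTPRN (0.0729) were lost, MIR483 gained one (0.0480), and no other named call changed. The main fit did not pair the libraries by number. The crossed pairing, mean of 10 reads and removal of MIR3654 and MIR4426 were chosen after seeing the data.

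Signs that turned belonged to uncalled values, and the cause was not tested. With limma-voom MIR3064 was 0.0046, MIR4740 0.078, MIR5047 -0.0083 and MIR635 -0.080. MIR5047 was -0.0046 without a filter and -0.0076 with upper quartile scaling. With total counts MIR4740 was 0.0997, MIR218-2 0.031, MIR130B 0.021, MIR3064 0.101, MIR647 0.055, HNRNPK 0.073, SLIT3 0.074, DGCR8 0.077 and AEN 0.011. Leaving out 1 library gave -0.83 to 0.096 for MIR3654, -0.17 to 0.16 for MIR5047, -0.17 to 0.97 for MIR4442, -0.27 to 0.72 for MIR3916, -0.69 to 0.017 for MIR1914, -0.24 to 0.032 for MIR130B, -0.44 to 0.43 for MIR4740, -0.20 to 0.14 for MIR3064, -0.32 to 0.42 for MIR4712, -0.048 to 0.96 for MIR589, -1.13 to 0.56 for MIR218-2, -0.27 to 1.04 for MIR153-1, -0.36 to 0.47 for MIR647, -0.68 to 0.50 for MIR635 and -0.35 to 1.27 for MIR7-2. For genes it gave -0.015 to 0.071 for DDX5, -0.0047 to 0.12 for CAPN15, -0.070 to 0.16 for FBXL18, -0.11 to 0.020 for SLIT3, -0.062 to 0.12 for WDR82 and -0.096 to 0.013 for DGCR8. The lone library is then assumed to vary like the other group. Depth limits most rows, with 103 under 50 reads.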
